A study of Drosophila melanogaster with 2 samples.

Results

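The peaks described here lie in the DNA just upstream of single gene starts. They were chosen by position from the ChIP-seq peaks of the Drosophila protein CG31365 that were reproducible between replicates by irreproducible discovery rate (IDR peaks), after the 200 of highest signal value had been set aside. A peak was kept when its summit lay over 100 and up to 1000 bp upstream, on the gene's strand, of the nearest transcription start site (TSS), and when no TSS of another gene pointed away from that TSS within 500 bp. This gave 628 members out of all IDR peaks (22.3%), called upstream members below, next to 577 genes, and left 2193 others. Of these others, 200 were the highest peaks, 407 had summits within 100 bp of a single start (start-site peaks), 248 lay over 100 and up to 1000 bp downstream, 345 were at starts with such a divergent partner and 993 were farther away. The signal value that set the 200 apart, and the IDR step itself, also shaped the members' ranks, so signal and rank are given as descriptions only.

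The libraries came from whole embryos, both sexes pooled, collected over 0 to 24 h from a transgenic fly line that stably expresses CG31365 fused at its C terminus to GFP. There was 1 group of 2 biological replicates, numbered 2 and 3, and no untagged or untreated group was analysed here. One free-text label names the libraries as input, whereas the target, antibody and assay labels describe immunoprecipitation of the tagged protein, and they are treated here as such. An embryo of this age range holds every embryonic tissue, so a peak does not say in which cells the protein was bound, and a site bound in few cells cannot be told apart from one bound weakly in many. Coordinates are on dm6.

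The stretch upstream of a start site is the proximal promoter, where sequence-specific factors bind close to the core promoter on which RNA polymerase II assembles. Core promoter elements such as the TATA box and the DRE sit nearer to the start, and many fly genes have several starts, so that DNA upstream of one start can lie in an intron of a longer transcript of the same gene. RefSeq names the product of CG31365 only as an uncharacterized protein. No IDR peak and no pooled peak had CG31365 itself as its nearest gene (0 in each list).

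The sequences that carry the main finding are the windows of 100 bases to each side of the summits of 5 of the 6 highest members that hold AAGCAGT, the 7-base word that led the whole IDR list. They are shown 5′ to 3′ on the strand of the gene, from the RefSeq copy of the dm6 assembly, and capitals mark AAGCAGT or its reverse complement. The windows are chrX:12967404-12967604 (plus strand) at Mur11Da, chrX:4666910-4667110 (minus) at CG3009, chr3R:12638030-12638230 (plus) at CG11608, chrX:12957690-12957890 (minus) at hec and chrX:13130312-13130512 (plus) at MFS10.
Mur11Da: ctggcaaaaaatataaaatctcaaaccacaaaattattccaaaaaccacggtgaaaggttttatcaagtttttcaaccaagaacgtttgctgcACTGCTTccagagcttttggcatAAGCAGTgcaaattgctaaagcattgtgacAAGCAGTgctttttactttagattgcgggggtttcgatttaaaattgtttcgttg
CG3009: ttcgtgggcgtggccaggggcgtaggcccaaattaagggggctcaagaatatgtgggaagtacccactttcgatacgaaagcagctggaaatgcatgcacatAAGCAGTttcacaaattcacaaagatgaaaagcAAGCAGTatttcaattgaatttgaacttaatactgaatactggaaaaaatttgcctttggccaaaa
CG11608: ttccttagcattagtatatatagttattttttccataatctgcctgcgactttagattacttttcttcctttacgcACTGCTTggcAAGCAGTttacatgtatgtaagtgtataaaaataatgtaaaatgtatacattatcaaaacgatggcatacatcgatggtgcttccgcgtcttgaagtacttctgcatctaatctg
hec: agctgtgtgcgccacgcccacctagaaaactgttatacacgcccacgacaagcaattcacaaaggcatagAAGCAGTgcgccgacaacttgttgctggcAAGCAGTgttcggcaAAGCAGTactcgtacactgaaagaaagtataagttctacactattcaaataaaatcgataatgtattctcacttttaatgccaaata
MFS10: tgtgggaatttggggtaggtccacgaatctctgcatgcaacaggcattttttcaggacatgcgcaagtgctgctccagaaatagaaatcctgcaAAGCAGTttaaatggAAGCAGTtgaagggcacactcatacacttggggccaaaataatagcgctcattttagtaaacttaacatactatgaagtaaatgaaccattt

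Each of these windows holds 2 or 3 copies of the word, and in each of them the nearest copy is centred 2 to 11 bp from the summit. The member at kn, at rank 260 the third holder of the word by signal and not shown, has 1 copy, 6 bp from its summit, and 38 of the 50 members with the word hold a single copy. Most members have no copy, so 2 of the highest members without it are shown for contrast. They are chrX:21054323-21054367 (plus strand) at bves, cut to the 45 bases free of annotated untranslated exons, and chr3R:23669755-23669955 (minus) at CG31145. Capitals mark TATAAA on either strand, which occurs in 1 of them.
bves: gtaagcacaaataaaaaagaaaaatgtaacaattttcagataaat
CG31145: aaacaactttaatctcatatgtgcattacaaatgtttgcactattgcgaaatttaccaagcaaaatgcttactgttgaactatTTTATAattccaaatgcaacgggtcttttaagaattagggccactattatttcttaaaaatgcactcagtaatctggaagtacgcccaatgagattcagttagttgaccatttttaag

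The members crowded toward the start site. The median summit lay 262 bp upstream (quartiles 173 and 463), and 365 of 628 (58.1%, 95% Wilson interval 54.2 to 61.9) lay within 300 bp. The comparison used throughout is with low-ranked peaks, which are pooled peaks that overlap no IDR peak, and 3460 of them met the same rule of position. Of these, 40.7% lay within 300 bp, 17.4 percentage points fewer (95% Newcombe interval of the difference 13.2 to 21.6). A closer comparison takes as many of the highest low-ranked peaks as there are IDR peaks, here called next-ranked peaks. Among their 467 upstream peaks the share was 56.5%, and the interval of that difference, -4.31 to 7.50 points, included 0. All intervals here cover counting over peaks only, since neighbouring peaks are not independent and read depth was unknown.

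**Figure D1:**
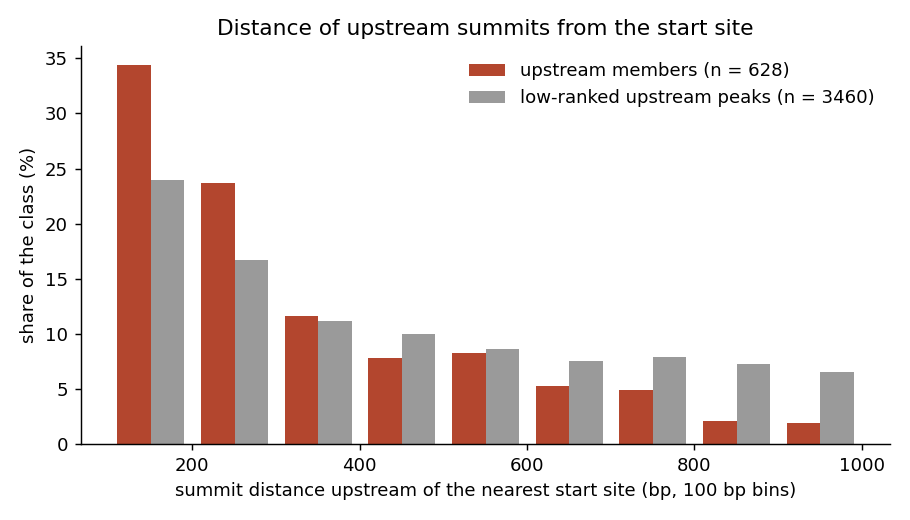
Share of upstream members and of low-ranked upstream peaks (y axis, percent of each class) by distance of the summit from the nearest start site (x axis, 100 bp bins). Members hold 34.4% of their summits in the first bin and 1.91% in the last, low-ranked peaks 24.0% and 6.56%.

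The rule has limits in rank and in distance. The member of highest signal, at Mur11Da, stood at rank 206 with a signal value of 719, and the last peak set aside above it, at CG9147, had rank 200 and a value of 740. The last member, at ZnT77C, had rank 2816 and a value of 124. Summits at Myd88 and CG9902 lay 1 bp past the near limit and were kept, while those at lncRNA:CR43651 and Sptr lay at 100 bp and were not. At the far limit lncRNA:CR42651 (999 bp) and lncRNA:CR45809 (985 bp) were inside, and peaks at CBP (1005 bp) and RabGGTa (1011 bp) were outside. CBP also has a member of its own, at 277 bp, so 1 gene stands on both sides of the limit.

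Most upstream members were listed in both replicates. The IDR step chose them from these same replicates, so the match is a description and no independent check. A summit within 100 bp was found for 613 members in the list of replicate 2 (97.6%), for 617 in that of replicate 3 (98.2%) and for 602 in both (95.9%, 94.0 to 97.2), and no member lacked both. Within the part of each replicate list as long as the IDR list, 460 members (73.2%) were matched in both. Spearman's rho between the replicates' signal values was 0.73 over the 602 members, a description over sites that share their libraries. The 26 members with a missing partner include vri, a clock transcription factor gene, which had none in replicate 2, and the highest of them stood at rank 627. A total of 351 members had a width of exactly 384 bp, the most frequent value, and how closely their summits place a site was not tested.

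Signal values of the members ran from 124 to 719 with a median of 209. Mur11Da, named as a mucin-related gene, had a signal value of 441 in replicate 2 and 285 in replicate 3. The member at bves, the fly relative of the vertebrate Popeye-domain gene, had 297 in replicate 2 and 411 in replicate 3, so the order of these genes turns between replicates. The member at gish, a casein kinase I gene, had 378 and 328. hec, which encodes a G protein-coupled receptor, had 374 in replicate 2 and 209 in replicate 3, and kn, the fly gene of the COE transcription factor family, had 363 and 223. Both stood higher in replicate 2, as did CG11608 (377 and 206).

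Among the 25 highest members were genes of several functions. shn, a zinc finger factor of BMP signalling, had a signal value of 333 in replicate 2 and 341 in replicate 3 at a summit 196 bp upstream. cbt, a zinc finger transcription factor gene, had 335 and 322. Toll-7, a receptor of the Toll family, had 417 and 231, and it also had a start-site peak. In these genes both replicates were above the members' upper quartiles, which were 165 in replicate 2 and 150 in replicate 3. The choice of these genes by pooled signal, drawn from the same replicates, favoured such values, so this is a description only. mRpL41, a mitochondrial ribosomal protein gene, had 368 and 336. Eglp4, of the aquaglyceroporin family, had 310 and 346, with its summit inside the neighbouring Eglp2 gene. Fkbp14, a peptidyl-prolyl isomerase gene, had 309 and 370.

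**Figure D2:**
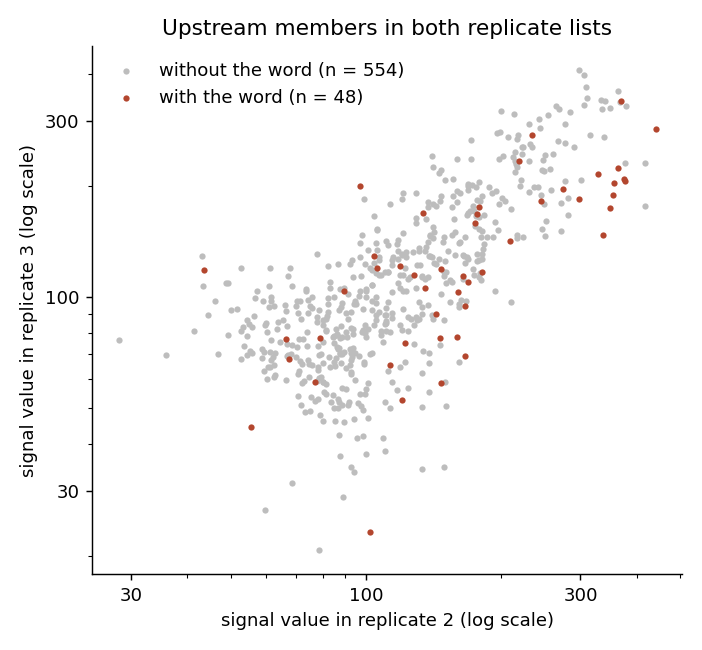
Signal value of the 602 upstream members matched in both replicate lists, replicate 2 on the x axis and replicate 3 on the y axis (both log scales, each list's own units); coloured points are the 48 with AAGCAGT within 100 bp of the summit. The values rise together (Spearman's rho 0.73), and 31 of the 48 coloured points have the higher rank in replicate 2.

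AAGCAGT occurred within 100 bp of the summit, on either strand, in 50 of 628 members (7.96%, 6.09 to 10.3). In low-ranked upstream peaks the share was 2.69%, and in all 26661 low-ranked peaks 2.72%. Over the whole IDR list, which includes the members and the highest peaks set aside, it was 13.2%. The members were thus richer in the word than low-ranked peaks but poorer than the list they come from, a gap given without an interval. The members exceeded the low-ranked upstream peaks by 5.27 points (3.31 to 7.71) and the next-ranked upstream peaks by 4.96 points (2.25 to 7.63). Its share in members was below that in the other promoter classes, by differences whose intervals include 0. Downstream IDR peaks held it in 11.3% (difference -3.33 points, -8.24 to 0.792) and start-site peaks in 9.83% (-1.87 points, -5.64 to 1.61), so both equal shares and a deficit of several points are within these intervals. Without replicate 2, peaks were chosen anew from the list of the other replicate, with no IDR step, which gave 617 members. In that different set of peaks the difference from start-site peaks was 0.308 points (-3.28 to 3.59). The share was higher in members in 9 of 9 distance bins of 100 bp, which hold as few as 12 members each.

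Copies of the word gathered at the summits. Of 65 copies in members, 32 (49.2%, 37.5 to 61.1) had their centre at most 20 bp from it, and copies spread evenly over the window would do so in 21.0% of cases. In low-ranked upstream peaks it was 17 of 97 copies (17.5%, 11.2 to 26.3). The copies lay on the gene's strand in 41 of 65 cases (63.1%, 50.9 to 73.8), and in 51 of 97 (52.6%, 42.7 to 62.2) in low-ranked peaks, intervals that overlap. A single copy was found in 38 members, 2 copies in 9 and 3 copies in 3.

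The 3 members with 3 copies were Mur11Da, hec and dpr3, the last an immunoglobulin-domain gene of neuronal recognition. dpr3 had a signal value of 275 in replicate 2 and 196 in replicate 3 at a summit 698 bp upstream. Pi3K92E, the catalytic subunit of the insulin-responsive PI 3-kinase, held 2 copies, 14 and 35 bp from its summit, with 169 in replicate 2 and 110 in replicate 3. alpha-Est1, an esterase gene, held 2 copies at 7 and 16 bp, with 349 and 174. smash, which encodes an adherens junction protein, held 2 copies at 9 and 18 bp, with 355 and 189. All 4 of these genes stood higher in replicate 2, and InR, the insulin receptor gene, which had no copy, did so too (271 and 151).

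The word went with rank among the members. It was present in 15 of 80 members of ranks up to 400 (18.8%, 11.7 to 28.7), in 7.69% from there to rank 800, in 8.33% on to rank 1600 and in 9 of 227 (3.96%, 2.10 to 7.36) at lower ranks. Members with it had a median signal value of 267 and those without it 203. The replicate lists, each of 30000 peaks, also differed by the word. Members with it stood at a higher rank in replicate 2 than in replicate 3 in 31 of 48 cases (64.6%), and members without it in 232 of 554 (41.9%), a difference of 22.7 points (7.97 to 35.4). The median log2 ratio of the signal values of replicate 2 to replicate 3 was 0.54 with the word and 0.09 without. By GC content, the median log2 ratio without the word was 0.08 below 35%, 0.09 at 35% to 45% and 0.15 at 45% and over. With the word it was 0.31, 0.62 and 0.56 in the same bands, over 17, 16 and 15 members, so it was lowest in the first band and did not rise further from the middle one. The part of GC content in the difference between replicates was not tested further.

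Summits of members were poor in G and C. The windows of 100 bases to each side had a GC content of 38.0% ± 7.55 (SD over 628 peaks), against 42.0% ± 8.29 in low-ranked upstream peaks, a difference of -4.02 points (-4.67 to -3.37). Start-site peaks stood at 45.1% (difference -7.13, -8.0 to -6.26) and downstream peaks at 41.3% (-3.35, -4.47 to -2.22). The low value was local. In bins of 20 bp it reached 35.4% just 3′ of the summit and rose to 44.2% in the bin centred 110 bp toward the gene, while in low-ranked peaks no such dip was seen. Downstream IDR peaks also had a dip, from 45.8% at 150 bp before the summit to 40.2% at 10 bp before it and 45.4% at 150 bp past it. Members were lower than low-ranked peaks in 9 of 9 distance bins and lower than the same stretch at all 18121 eligible start sites in 9 of 9. The last gap was small near the start, 39.1% against 39.4% up to 200 bp, and wider between 300 and 400 bp, 35.2% against 38.7%.

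**Figure D3:**
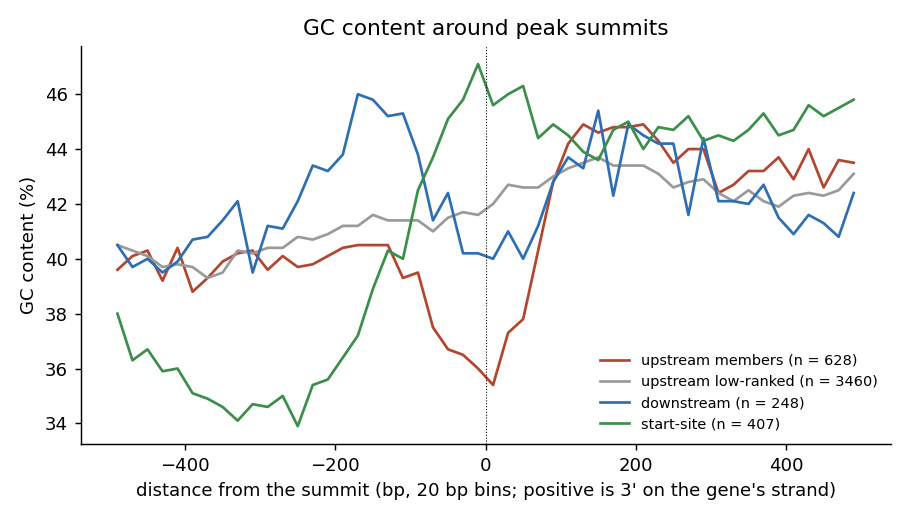
Mean GC content (y axis, percent) in 20 bp bins around the summit (x axis, positive toward the gene) for upstream members, low-ranked upstream peaks, downstream and start-site IDR peaks. The members dip to 35.4% at the summit and reach 44.2% at 110 bp, downstream peaks stand at 40.2% just before it, and the low-ranked line is nearly flat there.

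TATAAA, the TATA word, was found within 100 bp of the summit in 200 members (31.8%) and in 22.8% of low-ranked upstream peaks, 9.04 points fewer (5.24 to 13.0). Within each band of GC content the interval of the difference included 0. The difference was 4.11 points below 35% GC (-2.91 to 11.1), -1.15 points at 35% to 40% (-8.42 to 6.82), 3.49 points at 40% to 45% (-4.36 to 13.3) and -1.41 points above that (-5.03 to 4.92). Below 35% and at 40% to 45% the interval also held the 9.04 points of all peaks. The part of GC content in the difference was not tested. At the start sites themselves, 20 to 45 bases upstream where a TATA box works, TATAAA stood at 17 of the members' 609 start sites (2.79%). All eligible start sites held it in 6.93%, a difference of -4.13 points (-5.24 to -2.46), and those of next-ranked upstream peaks in 4.56%, a difference whose interval included 0 (-4.30 to 0.493). The low share was not particular to members. It was 2.85% at the starts of downstream IDR peaks (difference -0.0541 points, -3.15 to 2.14) and 4.18% at those of start-site peaks (-1.39 points, -4.01 to 0.868). AAGCAGT remained more frequent in members below 35% GC (5.20 points, 2.25 to 9.21), at 40% to 45% (5.58 points, 1.18 to 13.0) and above (10.9 points, 5.59 to 18.6), and its interval at 35% to 40% included 0 (-0.811 to 6.32).

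Of the words of known promoter factors, 4 were rarer in members than in start-site peaks and at about the level of low-ranked upstream peaks. By the rule the members' windows end short of the nearest start, while those of start-site peaks cover it. For words that sit near the start, this contrast was therefore set in part by position. The DRE, searched as TATCGATA on both strands, was in 1.27% of members, 1.04% of low-ranked upstream peaks and 8.60% of start-site peaks, the last difference being -7.33 points (-10.5 to -4.68). Motif 1, the M1BP site, searched as GGTCACAC, was in 0.478% of members, 0.838% of low-ranked upstream peaks and 6.88% of start-site peaks (-6.40 points, -9.30 to -4.13). Both words were also sought within 100 bp of the start sites themselves. The DRE was there at 2.13% of members' starts, 9.58% of those of start-site peaks and 3.59% of all eligible starts. Motif 1 was at 2.46%, 7.37% and 3.11%. For both words the members' difference from start-site peaks left out 0 and that from all eligible starts included 0. The core word of the boundary protein BEAF-32, CGATA, which lies within the DRE word, was in 24.2% of members and 40.5% of start-site peaks (-16.3 points, -22.1 to -10.5). The E-box word CAGCTG was in 9.39% and 14.3% (-4.86 points, -9.11 to -0.880). Over all 26661 low-ranked peaks these 4 words stood at 1.26%, 1.31%, 23.9% and 10.4%. The GAGA factor word GAGAG was in 33.6% of members, 31.4% of low-ranked upstream peaks and 38.8% of start-site peaks, with both intervals of the difference including 0, and it was in 39.8% of next-ranked upstream peaks, where members were lower (-6.23 points, -12.0 to -0.472). Of the other 8 words searched, CAGGTAG for Zelda, GATAAG for GATA factors, AGGNGGC for the CTCF core, GCATACTTT for the Su(Hw) core, TGACTCA for AP-1, GTAAACA for forkhead factors, ATTTGCAT for the octamer and CACGTG for the second E-box, none differed between members and all low-ranked upstream peaks beyond its interval. Against next-ranked upstream peaks the interval left out 0 for CACGTG, in 2.07% of members and 4.93% of those peaks (-2.85 points, -5.36 to -0.687). Against start-site peaks the octamer word was more frequent in members, 3.03% against 0.983% (2.04 points, 0.181 to 3.80). So was TATAAA, 31.8% against 19.9% (11.9 points, 6.50 to 17.1). The shares of the 8 other words in members ran from 0.478% for the Zelda word to 13.4% for the GATA word.

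**Figure D4:**
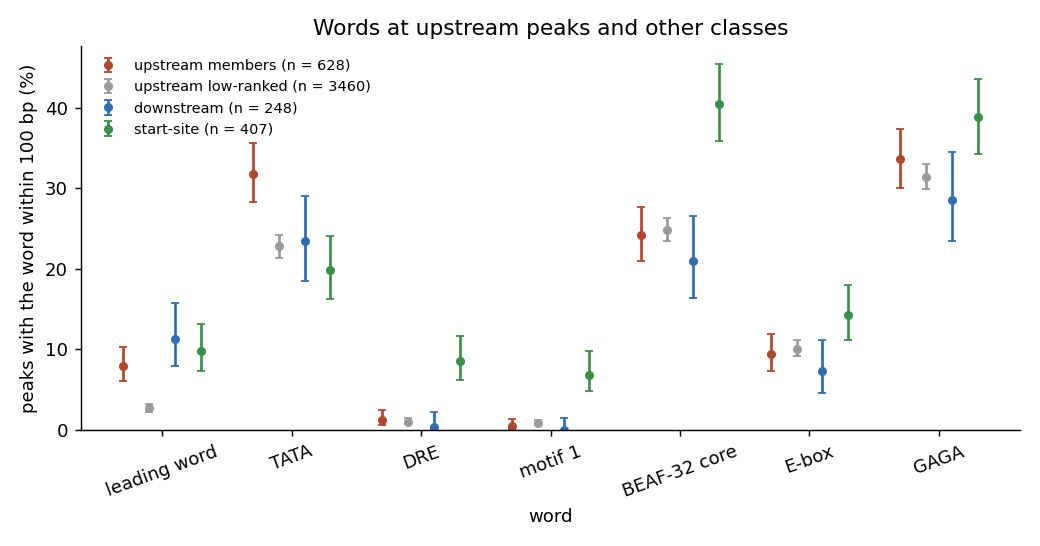
Share of peaks with each word within 100 bp of the summit (y axis, percent; bars are 95% Wilson intervals) in upstream members, low-ranked upstream peaks, downstream and start-site IDR peaks; the leading word is AAGCAGT. For it members stand at 7.96% and low-ranked peaks at 2.69%. For the DRE and motif 1 only start-site peaks, whose windows alone reach the nearest start, stand clear, at 8.60% and 6.88%.

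Ranking all 7-base words by the ratio of shares, members over low-ranked upstream peaks, on 2L, 3L and X placed AAGCAGT at number 6 of 1113 words held by at least 15 members there. On 2R and 3R, which the ranking did not use, it stood at 7.84% in members and 2.53% in low-ranked peaks, a difference of 5.31 points (2.50 to 9.21). Of the 20 words ranked first, 5 had intervals above 0 on those arms, AAGCAGT and AGCAGTG, which overlaps it, among them. The 5 words ranked above AAGCAGT all had intervals that included 0 there, so on the unused arms it led them. The word itself had been found in the whole IDR list, of which the members are a part, and this is not independent evidence of it.

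Nearly as many members lay inside the gene's own longer transcripts as between genes. The summit was in no gene in 291 members (46.3%, 42.5 to 50.2) and in a longer transcript of the same gene in 249 (39.6%), and it was in another gene on the same strand in 35 and on the opposite strand in 53. The own-gene share exceeded that of low-ranked upstream peaks by 8.35 points (4.28 to 12.5), but that of next-ranked upstream peaks by only 3.25 (-2.58 to 8.99). The nearest start belonged to a protein-coding gene in 573 members (91.2%, 88.8 to 93.2) and in 84.3% of low-ranked upstream peaks, 6.91 points fewer (4.17 to 9.24), and this gap too fell within its interval against the next-ranked ones (2.16, -1.36 to 5.88). Members' genes also had a start-site peak in 43 cases (6.85%), against 4.31% for low-ranked upstream peaks (2.54 points, 0.669 to 4.88). For downstream IDR peaks that share was 10.5%, and the interval of the members' difference from them included 0 (-3.64 points, -8.39 to 0.298). The X chromosome held 128 members (20.4%) but only 10.6% of start-site peaks, a difference of 9.82 points (5.33 to 14.1), and it held 16.9% of all eligible start sites. Downstream IDR peaks were on X in 21.0% of cases (-0.586 points, -6.83 to 5.09), and the excess over next-ranked upstream peaks, 3.89 points, had an interval that included 0 (-0.799 to 8.43).

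Most genes had a single member. There were 530 genes with 1, 43 with 2 and 4 with 3, and 30 of the 47 with several used more than 1 start site. The 4 were HmgZ, Pgk, Ptpmeg2 and SNF4Agamma. HmgZ encodes an HMG-box chromatin protein, Pgk the glycolytic phosphoglycerate kinase, Ptpmeg2 a tyrosine phosphatase and SNF4Agamma the regulatory gamma subunit of the energy sensor AMPK. The 3 members of SNF4Agamma, at ranks 275, 506 and 773, had signal values of 328, 147 and 136 in replicate 2 and 215, 220 and 163 in replicate 3. Its first member held the AAGCAGT word and stood higher in replicate 2, while the other two had none and stood higher in replicate 3. The summits of HmgZ lay in the annotated extent of both HmgZ and its neighbour HmgD, so the gene they belong to is uncertain, and 2 of them share 1 peak interval.

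Of 14111 genes with a start free of a divergent partner, 4.09% were the nearest gene of a member, and of 10652 protein-coding ones 4.91%. Gene lists are read against these shares, as counts with no test. Receptor tyrosine kinase signalling held 5 of 15 genes (33.3%, 15.2 to 58.3), and they stand at several steps of that pathway. spi encodes the main EGF receptor ligand, ths an FGF ligand, pnt an ETS activator at the end of the cascade, aop its ETS repressor counterpart and sty the feedback inhibitor Sprouty. spi had 2 members, with signal values of 165 and 70.3 in replicate 2 and 129 and 73.1 in replicate 3. pnt had 133 and 114, sty 141 and 87.1, ths 122 and 75 and aop 108 and 79.2. In each of these 4 genes replicate 2 was the higher, and their pooled ranks, 914 to 1533, are in the middle of the members.

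Other signalling lists held few genes each. BMP signalling had 2 of 9, Mad, the pathway's transcription factor (137 and 181), and brk, the repressor that the pathway silences (78.0 and 64.6). Notch signalling had 2 of 20, the receptor gene N (119 and 64.6) and E(spl)m7-HLH, a target of it (72.5 and 76.9). Insulin and TOR signalling had 2 of 17, InR and Pi3K92E. Innate immunity had 3 of 28, the Toll adaptor Myd88 (161 and 140 at the nearer of its 2 members), the inhibitor cact (86.6 and 50.3) and PGRP-LB, a peptidoglycan amidase gene (78.8 and 47.9). The values in brackets are signal values in replicate 2 and replicate 3. For these lists the 95% intervals of the share include the background, except that of BMP signalling (22.2%, 6.32 to 54.7), which starts above it.

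Patterning and structural lists held no members, but most of these lists are too short for that to show a deficit. No member was nearest to any of 8 Hox genes, 15 gap and pair-rule genes, 19 Wnt and Hedgehog genes, 21 cytoskeleton and adhesion genes, 27 snRNA genes or 114 cuticle genes, and only for the last does the upper limit, 3.26%, lie below the background. Chemosensory genes had 1 of 205 (0.488%, Obp99b, an odorant-binding protein gene) and cytochrome P450 genes 1 of 80 (Cyp310a1). Neuronal recognition and guidance had 1 of 63 (dpr3). Heat shock genes had 2 of 23, Hsp27, a small heat shock protein (244 in replicate 2 and 286 in replicate 3), and Hsc70-3, the chaperone of the endoplasmic reticulum (88.0 and 94.2). Nuclear receptor and ecdysone genes had 1 of 18 (Hnf4), clock genes 1 of 8 (vri) and cell cycle genes 1 of 16 (Cdk4). The intervals of the heat shock, nuclear receptor, clock and cell cycle lists all include the background.

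Cytoplasmic ribosomal protein genes had a start-site peak more often than a member. Of 58 eligible cytoplasmic ribosomal protein genes, 36 had a start-site peak and 1, RpL17, had a member (1.72%, 0.305 to 9.14). For scale, the IDR list held 407 start-site peaks and 628 members, and 14111 genes were eligible. The share of all eligible genes with a start-site peak was not computed. The interval of the member share includes the 4.09% of all eligible genes. The member at RpL17 lay 107 bp upstream, close to the near limit, with 149 in replicate 2 and 34.7 in replicate 3, the latter at rank 7360 of its list. Mitochondrial ribosomal protein genes had 1 of 20, mRpL41, close to the background, and none of the 20 had a start-site peak. Among tRNA genes 5 of 231 had a member (2.16%) and 9 had a start-site peak, and as tRNA genes are near-identical copies, reads could be shared between them. Members at tRNA:Ile-AAT-1-9 (181 and 127) and tRNA:Thr-AGT-1-2 (112 and 96.8) were the highest of these. Noncoding RNA genes had 48 of 2839 (1.69%, 1.28 to 2.23), below the 4.09% of all genes. They include 3 of 251 microRNA genes, mir-9378, mir-34 and mir-4978, and lncRNA:CR44034, which lies inside InR and had 2 copies of AAGCAGT with signal values of 209 and 142. snoRNA genes had 1 of 263, snoRNA:Or-ACA6.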

How the data were processed

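ChIP-seq of 1 group, 2 replicates, was deposited as 4 peak lists on dm6: 30000 peaks for each replicate and for the pooled replicates, and 2821 IDR peaks. The authors' deposited signal value ranks peaks within a list, and the deposited summit offset score gives the summit; aligner, caller, threshold and depth are not given in the sources used here. Start sites came from Ensembl release 115 of BDGP 6.54, without pseudogenes and transposable elements, and sequence from RefSeq's copy of the assembly. Low-ranked peaks (26661) were pooled peaks without any overlap with an IDR peak, and the next-ranked were the 2821 highest of them. Shares have 95% Wilson intervals and differences 95% Newcombe intervals; a difference was called where its interval left out 0, with no p-value. Statistics were tested on simulated data. microRNA genes were taken by symbol, and 3 list genes by their current symbols.

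Named genes were the 25 highest members, up to 3 per list, the 10 with most AAGCAGT copies and those at the rule's limits. The sequence of 1 member is not reported here. ths, aop and the genes with 3 members were named after their values were seen. Members, words and the 24 lists were chosen with earlier results of these data known. Python 3.11.15, numpy 2.4.6, pandas 2.3.3, scipy 1.17.1 and matplotlib 3.10.9 were used.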

Additional observations from a re-analysis of the deposited data

How the results depend on the processing

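The 16 results were recomputed in 137 cases under alternative settings, and 123 were counted as unchanged. A difference was so counted when it kept its direction and its interval still included, or still left out, 0. It was also so counted when its sign changed but neither interval left out 0, as for start-site peaks below. Shares and means had to stay within the reported interval, and counts within 1.5 times of the reported value. With the upper 50% of the IDR list only, there were 358 members, the AAGCAGT share was 11.5%, the share with a start-site peak at the same gene 2.23% and the share matched in both replicates 98.3%. The AAGCAGT share was 5.57% within 50 bp and 13.4% within 250 bp of the summit, and matching within 50 or 200 bp gave 78.8% or 99.2% in both replicates. The AAGCAGT difference from downstream peaks left out 0 with the word sought within 50 bp (-4.91 points) and when replicate 3 was left out (-4.69 points, against -3.45 without replicate 2), and the cause was not tested. The difference from start-site peaks, not called in any setting, ran from -2.21 to 0.308 points with 1 replicate left out. With 1 replicate left out, peaks were chosen anew from the other replicate's list, with no IDR step. This gave 617 members without replicate 2 and 618 without replicate 3. Such values therefore differ from the reported ones in the choice of peaks as well as in the replicate. Chosen after the data were seen, windows of 35% to 40% GC gave an AAGCAGT difference of 1.93 points from low-ranked upstream peaks and a TATAAA difference of -1.15 points, a reversal; the band holds fewer peaks. Against next-ranked peaks the own-gene difference was 3.25 points and the protein-coding difference 2.16 points, both with intervals that include 0. Restricting start sites to protein-coding genes fixes the protein-coding and tRNA shares, so those 2 were not computed. No paired analysis was possible because all samples belong to 1 group. Read depth was unknown, and low-ranked entries of lists of fixed length include background.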
